A study of Mus musculus with 2 samples.

Results

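The genes described here are the 4 Id genes (Id1, Id2, Id3 and Id4) and 6 genes of bone morphogenetic protein (BMP) signalling: the ligand Bmp4, the receptors Bmpr1a and Bmpr2, the intracellular inhibitor Smad6, and the extracellular inhibitors Grem1 and Mgp. They were taken by gene symbol and not by a rule on their values, though earlier results of these data were known. They make up 10 of the 27998 genes counted. Each of the 10 had at least 1 UMI (unique molecular identifier, 1 captured transcript) in both libraries, among 16272 genes detected in wild-type and 16394 in the mutant library.

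BMP ligands bind a complex of type I receptors such as BMPR1A and the type II receptor BMPR2, which phosphorylates SMAD1, SMAD5 and SMAD9; these enter the nucleus with SMAD4 and switch on Id1, Id2, Id3 and, as feedback, Smad6. ID proteins are helix-loop-helix proteins without a DNA-binding domain that capture E proteins, the partners of tissue-specific bHLH factors such as scleraxis (SCX), the transcription factor that marks tendon cells. BMP signalling shares SMAD4 with the TGFβ pathway, and in tendon it is best known at the attachment of tendon to bone.

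The study profiled enzymatically released limb tendon cells, from forelimbs and hindlimbs, at postnatal day 7 (P7), by droplet single-cell RNA sequencing of transcript 3′ ends. The mutant library came from Tgfbr2;ScxCre pups, in which Cre driven in Scx-expressing cells deletes the floxed TGFβ type II receptor gene, and the control library came from pups labelled wild-type (a second label of the same sample reads Het). Each library is a pool of 2 pups, and there was 1 library per condition. All mice of the study carried the tendon reporter ScxGFP. By the paper's account its Scx counts include reporter transcripts and so do not give the level of the endogenous gene. The Scx cut and the groups by Scx level below therefore follow gene and reporter together. With 1 library on each side no test between conditions was possible. Intervals below are exact 95% intervals, unless named otherwise, and cover counting error only, and library, batch and condition cannot be told apart. Tgfbr2 itself was counted at 30.5 CPM (UMIs of a gene per 1000000 UMIs of the summed cells) in Scx-high cells of the wild-type and 43.7 in those of the mutant library. A 3′ tag lies outside the deleted part, so this does not check the labels.

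The wild-type library held 2364 cells and 9451606 UMIs (median 3866.5 UMIs per cell) and the mutant library 2592 cells and 8250248 UMIs (median 2828), with 2 cell barcodes in common. Cells were sorted into classes by marker counts, with no member gene among the markers. Scx-high cells (30 or more Scx UMIs per 10000) numbered 1111 in wild-type and 177 in the mutant library, and Scx-low fibroblasts (at least 5 UMIs over Ly6a, Cd34, Dpt, Lum and Col3a1) numbered 698 and 1804. Mural cells (pericytes and smooth muscle) numbered 219 and 204, endothelial cells 22 and 29, and immune cells 193 and 197. Every marker of the tenocyte, mural, endothelial and immune lists was highest in its own class in both libraries. Of the 7 fibroblast markers this held for all in wild-type and for 6 in the mutant library, where Cd34 was highest in endothelial cells. The mural, endothelial and immune lists also formed those gates, and Scx, Ly6a, Cd34, Dpt, Lum and Col3a1 formed the fibroblast gates. For these markers the order was largely fixed by the gates and does not check the classes. The mural gate also took in 52 wild-type and 58 mutant cells over the Scx cut, because its list holds Acta2, so mural levels are also given for the gated cells under the cut. In the mutant Scx-high cells all 7 fibroblast markers were higher than in the wild-type Scx-high cells, with a summed level of 5634 against 710 CPM, and 20.3% against 8.55% of the cells were cycling. The part of these differences in the results below was not tested. By lineage tracing the paper derived the ScxGFP-negative cells of mutant tendons from tenocytes. In wild-type tendons it found Sca-1 (encoded by Ly6a) and CD34 in the epitenon, the cell layer around the tendon, and not in tenocytes. The Scx-low fibroblasts of the libraries may therefore differ in origin, and whether they are like cells was not tested. The paper describes cells with ScxGFP in mutant tendons as newly recruited, some with a weak or absent reporter of Cre activity. The Scx-high cells of the libraries may thus also differ in origin, and this was not tested.

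On the GRCm38 assembly (GENCODE M21) the Id genes lie at chr2:152736251-152737410 (Id1, plus strand), chr12:25093799-25097140 (Id2, minus), chr4:136143497-136145755 (Id3, plus) and chr13:48261228-48266026 (Id4, plus). Bmp4 lies at chr14:46383520-46390669 (minus), Bmpr1a at chr14:34410734-34503341 (minus), Bmpr2 at chr1:59763400-59879014 (plus), Smad6 at chr9:63953076-64022059 (minus), Grem1 at chr2:113746164-113758646 (minus) and Mgp at chr6:136872435-136875823 (minus). Genes on the opposite strand overlap Id4, Bmp4 and Bmpr1a, and the same-strand gene model Gm38125 overlaps Bmpr2. The promoter windows of Id4 and Bmp4 are shown because these 2 genes had the lowest mutant over wild-type ratios among members with at least 20 UMIs, Id4 in mural cells and Bmp4 in Scx-low fibroblasts. Each is the 250 bases before the RefSeq transcription start (GRCm38.p6), written 5′ to 3′ in the direction of transcription, at chr13:48260866-48261115 for Id4 and chr14:46390670-46390919 for Bmp4. Neither window overlaps an annotated exon, and capitals mark GGCGCC, the palindromic core of GC-rich elements bound by BMP-activated SMADs.
Id4: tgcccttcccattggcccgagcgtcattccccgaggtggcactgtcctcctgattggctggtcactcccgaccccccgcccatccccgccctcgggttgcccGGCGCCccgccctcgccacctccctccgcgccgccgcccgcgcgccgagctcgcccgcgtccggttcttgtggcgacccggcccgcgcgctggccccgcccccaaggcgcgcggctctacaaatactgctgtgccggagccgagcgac
Bmp4: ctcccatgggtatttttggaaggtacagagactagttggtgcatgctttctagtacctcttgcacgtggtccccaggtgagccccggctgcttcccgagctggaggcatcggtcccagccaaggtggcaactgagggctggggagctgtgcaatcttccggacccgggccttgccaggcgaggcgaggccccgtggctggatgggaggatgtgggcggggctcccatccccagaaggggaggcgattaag
The Id4 window held 1 GGCGCC, starting 148 bases before the start site, and the Bmp4 window held none. Windows of the same length were found in the RefSeq table for 8 of the 10 members (Id1 and Mgp had no entry), and 5 of the 8 (Id2, Id4, Bmpr1a, Bmpr2 and Grem1) held GGCGCC on either strand, against 9.59% of 32851 promoters. Annotated exons cover 161 bases of the Id2 window, 141 of the Bmpr1a window, and all 250 of the Bmpr2 and Id3 windows. The G and C content of the 8 windows ran from 62.8% to 78.8%, above the median of 52.4% over all promoters. CAGAC or its complement GTCTG, the SMAD3 and SMAD4 box, was in 2 of the 8 (Id3 and Grem1) against 42.2% of all promoters, and no member window had overlapping matches of the 2 motifs. These matches describe the letters of the windows and no binding was measured.

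Between the libraries, most members differed by less than 2-fold in both fibroblast classes, and Bmp4 and Mgp were the exceptions in both. A gene was counted as past 2-fold when its CPM differed at least 2-fold between the summed cells of the classes compared, with at least 20 UMIs in the sum of both. In Scx-high cells, 2 of the 9 members with enough UMIs were at least 2-fold higher in the mutant library (Bmpr1a and Mgp), where 13.5% of 9489 genes were, and 1 was at least 2-fold lower (Bmp4), where 8.07% were. In Scx-low fibroblasts, 1 of 9 was higher (Mgp), against 6.07% of 11025 genes, and 1 was lower (Bmp4), against 5.71%. The median log2 ratio of the members was 0.21 in Scx-high cells and -0.52 in Scx-low fibroblasts, and that of all genes was 0.30 and -0.04. Relative to the median gene, Bmpr1a was no longer past 2-fold in Scx-high cells.

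The fibroblast classes were also compared within each library. In the wild-type library 4 of 10 members were at least 2-fold higher in Scx-low fibroblasts (Id1, Id3, Id4 and Bmp4), against 20.9% of 10475 genes, and 1 was lower (Grem1), against 6.23%. In the mutant library 2 of 9 were higher (Id3 and Id4), against 15.4% of 10509 genes, and none was lower, against 6.51%. The median log2 ratio of all genes was 0.45 in wild-type and 0.07 in the mutant library, and centred on it 1 member (Id4) stayed past 2-fold in the wild-type library. Without cells with neural, muscle, cartilage and bone markers, the wild-type ratios of Id1 and Id3 were 1.14 and 1.67, under 2-fold. That of Smad6 was 2.93. This alternative kept 176 of the 1111 wild-type Scx-high cells. In the mutant library the Scx-low over Scx-high ratio of Bmpr1a was 0.691 (0.491 to 0.996). Those of Smad6, at 0.662 (0.290 to 1.77), Bmpr2, at 0.936 (0.532 to 1.77), and Id2, at 0.998 (0.843 to 1.19), were within counting error of 1.

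**Figure D1:**
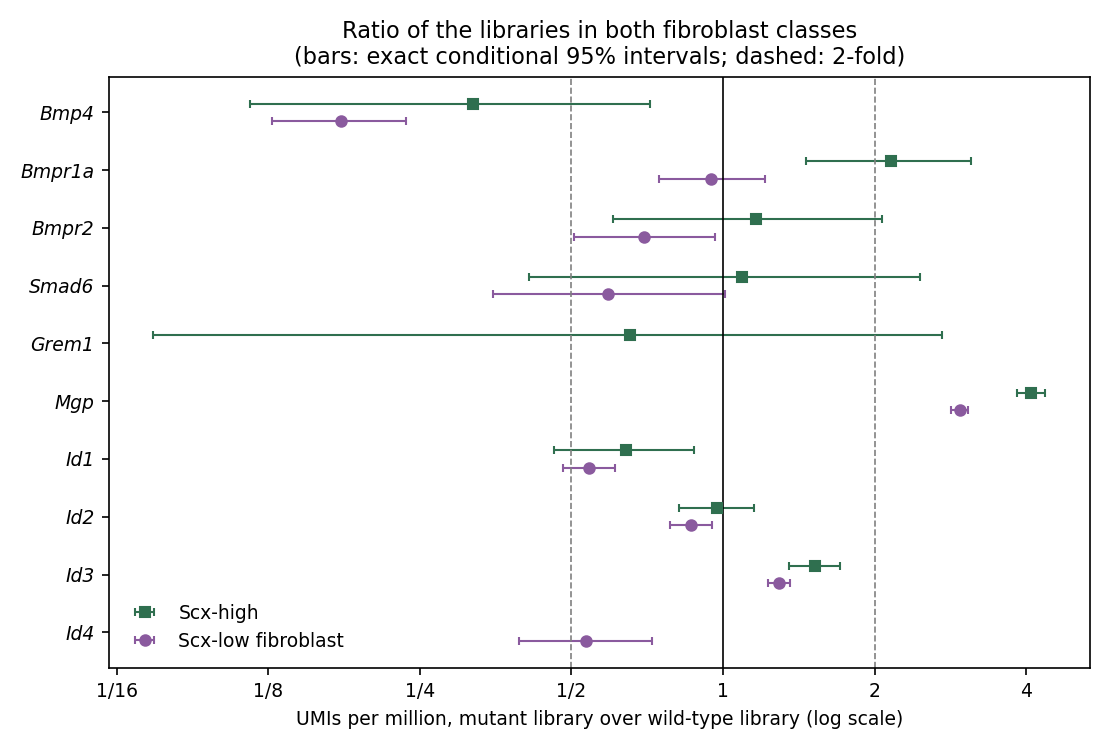
Ratio of the mutant to the wild-type library for each member, on a log axis, in Scx-high cells (squares) and Scx-low fibroblasts (circles), with exact conditional 95% intervals; pairs of sums under 20 UMIs (Id4 in Scx-high cells, Grem1 in Scx-low fibroblasts) are left out. Bmp4 lies left of the 2-fold line and Mgp right of it in both classes, while the Id2 points lie near 1.

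Bmp4, the ligand among the members, was lower in the mutant library in both fibroblast classes. In Scx-low fibroblasts it was counted at 62.4 CPM (163 UMIs, interval 53.2 to 72.8) in wild-type and 10.8 (60 UMIs, 8.27 to 13.9) in the mutant library, which is 5.76-fold lower. In Scx-high cells the levels were 25.7 (117 UMIs, 21.2 to 30.7) and 8.19 (6 UMIs, 3.01 to 17.8), which is 3.13-fold lower, with an interval of the ratio from 0.115 to 0.716. The intervals of the libraries do not overlap in either class. All 6 Bmp4 UMIs of the mutant Scx-high cells came from the 73 cells with 30 to 100 Scx UMIs per 10000. In that group Bmp4 was not lower, at 17.9 (7.73 to 35.3) in wild-type and 22.8 (8.39 to 49.7) in the mutant library. At 300 or more it was at 34.6 (25.6 to 45.7) in wild-type cells, and 0 UMIs were found in 44 mutant cells, a count that allows up to 12.8. After thinning each cell to 1500 UMIs, Bmp4 was detected in 7.31% (5.44% to 9.57%) of the wild-type and 1.53% (0.992% to 2.25%) of the mutant Scx-low fibroblasts, against 14.8% and 3.16% before thinning. Bmp4 had 0 UMIs in the 88 and 79 haemoglobin-rich cells, a count that allows up to 6.13 and 9.01 CPM. Red blood cell genes made up 957396 and 971440.4 CPM there, so these limits cannot be set against fibroblast CPM. As a share of cells the limits were 3.41% and 3.8%, and the mutant Scx-low share of 3.16% lies under the second. Whether the mutant Bmp4 level lies above free RNA therefore cannot be read from these cells.

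Split by Pi16 or by Tnmd, each group of mutant Scx-low fibroblasts had less Bmp4 than the same wild-type group, though the intervals overlapped in cells with Tnmd. Among wild-type Scx-low fibroblasts, Bmp4 was at 62.2 CPM in cells with Pi16, a marker of adventitial fibroblasts, and at 62.5 in cells without it. The mutant values were 20.5 and 8.24. Scx-low fibroblasts with at least 3 UMIs of the late tendon gene Tnmd had 19.9 in the wild-type (10 UMIs, 9.55 to 36.6) and 5.29 in the mutant library (8 UMIs, 2.29 to 10.4), while those with fewer had 72.5 and 12.9. The other classes held few Bmp4 UMIs: 21 and 7 in mural (18 and 5 under the Scx cut), 7 and 4 in endothelial, and 1 and 0 in immune cells.

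**Figure D2:**
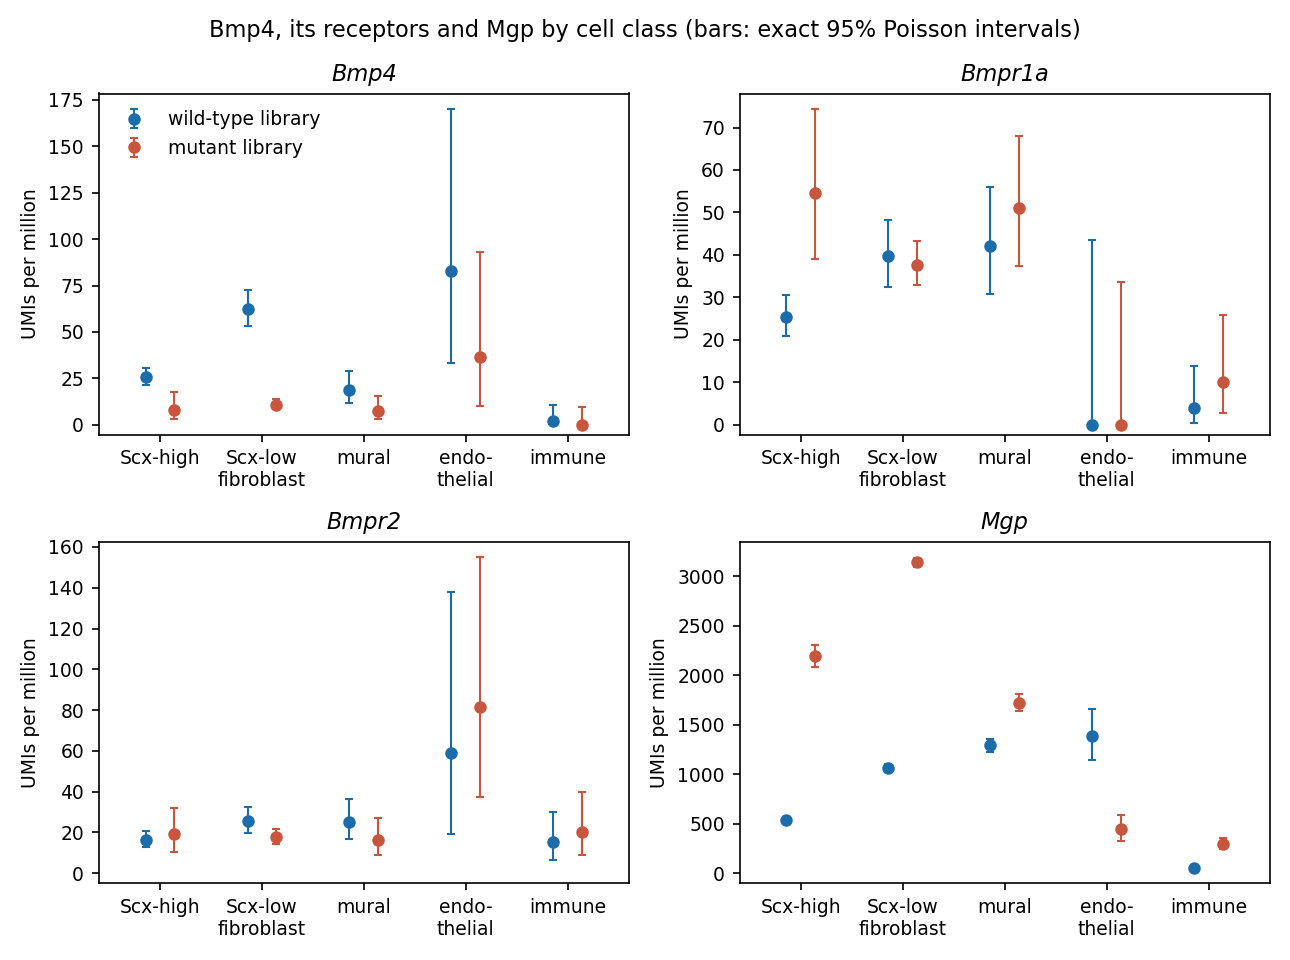
CPM of Bmp4, Bmpr1a, Bmpr2 and Mgp in 5 cell classes of the wild-type (blue) and mutant (red) library, with exact 95% Poisson intervals; each axis has its own scale. Bmp4 is lower in the mutant library in both fibroblast classes, and Mgp is higher in both fibroblast classes, mural and immune cells but lower in endothelial cells.

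Of the receptors among the members, Bmpr1a was past 2-fold between the libraries in Scx-high cells and Bmpr2 in neither fibroblast class. Bmpr1a, a type I receptor, was at 25.4 CPM (116 UMIs, 21.0 to 30.5) in wild-type and 54.6 (40 UMIs, 39.0 to 74.3) in mutant Scx-high cells, a ratio of 2.15 (1.46 to 3.10). In Scx-low fibroblasts the levels were 39.8 and 37.7, a ratio of 0.948 (0.746 to 1.21), and in mural cells 42.1 and 51.1 (51.8 and 64.9 under the Scx cut). The ratio in Scx-high cells was thus 2.26 times that in Scx-low fibroblasts (approximate 95% interval by the delta method 1.47 to 3.48), and the mutant Scx-high level overlapped those of mural cells in both libraries. No Bmpr1a UMI was found in the 22 wild-type and 29 mutant endothelial cells, counts of 0 that allow up to 35.5 and 27.2 CPM. Bmpr2, the type II receptor, was at 16.4 and 19.1 in Scx-high cells, a ratio of 1.16 (0.606 to 2.07), and at 25.7 and 17.9 in Scx-low fibroblasts, a ratio of 0.697 (0.506 to 0.965). Its highest levels were in endothelial cells, at 59.1 (5 UMIs) and 81.7 (9 UMIs). Those intervals reach down to 19.2 and 37.4, so in the wild-type library the endothelial level overlapped the level in Scx-low fibroblasts.

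Smad6, the inhibitor of receptor signalling that BMP itself induces, was counted too rarely for a difference between the libraries to show. Scx-high cells had 8.77 CPM (40 UMIs, 6.27 to 11.9) in wild-type and 9.55 (7 UMIs, 3.84 to 19.7) in the mutant library. Scx-low fibroblasts had 10.7 (28 UMIs) and 6.32 (35 UMIs), a ratio of 0.590 with an interval from 0.349 to 1.01. In the order of the 10 class levels every neighbouring pair of Smad6 intervals overlapped.

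Grem1, a secreted antagonist of BMP2 and BMP4, was near the detection limit throughout, with 19 UMIs in wild-type Scx-high cells and at most 13 in any other class of either library. Those 19 were 73.1% of the Grem1 UMIs of the library. Its level was 4.17 CPM there (2.51 to 6.51) and 1.91 (0.622 to 4.47) in Scx-low fibroblasts. The ratio of the 2 classes was 0.459 with an interval from 0.134 to 1.27, so the difference is within counting error.

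Mgp, the secreted matrix Gla protein that inhibits calcification and binds BMP ligands, had the largest mutant over wild-type ratio of the members in both fibroblast classes. Scx-low fibroblasts had 1064 CPM (2780 UMIs, 1025 to 1105) in wild-type and 3142 (17398 UMIs, 3096 to 3189) in the mutant library, a ratio of 2.95 (2.84 to 3.07). Scx-high cells had 535 (514 to 557) and 2192 (2086 to 2302), a ratio of 4.09 (3.84 to 4.36). In Scx-low fibroblasts the share of cells with Mgp, after thinning, was 50.5% in wild-type and 76.0% in the mutant library. The 10% of cells with the most Mgp had at least 34.4 and 83.7 Mgp UMIs per 10000, so the upper end of the distribution differed as well as the share of cells.

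Outside the fibroblasts the Mgp ratio differed from class to class. Mural cells had 1293 and 1723 CPM, a ratio of 1.33 (1.24 to 1.43), and those under the Scx cut 1576 and 2195. With the mural list that leaves out Acta2 the ratio was 2.39. Endothelial cells had 1383 (117 UMIs) and 445 (49 UMIs), a ratio of 0.322 (0.225 to 0.453), on 22 and 29 cells. Without cycling cells the endothelial ratio was 0.535. Immune cells had 53.7 (28 UMIs) and 294 (116 UMIs), a ratio of 5.47 (3.60 to 8.59). Of the mutant UMIs 26 came from 1 cell, and without the 13 wild-type immune cells over the Scx cut the wild-type level was 33.4. In the wild-type library Mgp was found in 10.4% of immune cells (median 2417 UMIs per cell) and in 9.09% of haemoglobin-rich cells (median 5682). These cells differ in depth and in their main RNA, so the shares do not show whether the immune level is background. The mutant shares were 17.8% (median 1704) and 5.06% (median 4451), and all 7 fibroblast markers were higher in the mutant than in the wild-type immune cells (summed level 1352 against 209 CPM). The part of free RNA from fibroblasts in the immune Mgp ratio was not tested.

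Among the targets, the 4 Id genes did not move together between the libraries. Over the summed cells, Id1 was lower and Id3 higher in both fibroblast classes of the mutant library. Id2 was close to equal there, and Id4 was lower in Scx-low fibroblasts and in mural cells. In the Scx-high cells with the most Scx, Id3 was not higher, as given below. None of the Id ratios reached 2-fold in a fibroblast class. They compare each class with the same class of the other library. The cells of either fibroblast class may differ in origin between the libraries, as described above, and whether they are like cells was not tested. The paper instead compared its mutant cluster with wild-type tenocytes and reported Id3 and Mgp as higher in the mutant cells. Mutant Scx-low fibroblasts had Id3 at 1067 CPM, against 316 in wild-type Scx-high cells, and Mgp at 3142 against 535.

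Id1 was at 201 CPM (524 UMIs, 184 to 219) in wild-type and 109 (602 UMIs, 100 to 118) in mutant Scx-low fibroblasts, a ratio of 0.542 (0.481 to 0.610). In Scx-high cells it was at 95.6 (436 UMIs, 86.8 to 105) and 61.4 (45 UMIs, 44.8 to 82.2), a ratio of 0.642 (0.462 to 0.874). In mural cells it was at 213 and 97.8, a ratio of 0.459 (0.356 to 0.587), and at 243 and 121 in those under the Scx cut. Endothelial cells were the highest class in both libraries, at 556 (47 UMIs, 408 to 739) and 735 (81 UMIs, 584 to 914), with overlapping intervals, and immune cells the lowest, at 28.7 and 22.8. The Scx-low and mural intervals overlapped each other within each library. In thinned Scx-low fibroblasts Id1 was detected in 19.2% (16.2% to 22.4%) of wild-type and 11.5% (9.99% to 13.1%) of mutant cells. In thinned Scx-high cells the shares were 10.3% (8.52% to 12.3%) and 11.9% (7.35% to 18.0%), and the ratio of the thinned counts was 1.01. The lower Id1 of the mutant Scx-high cells was thus not seen after thinning, where 19 mutant cells held Id1. In the other 17 alternatives, among them counts scaled to equal UMIs per cell, the ratio stayed within its interval. Some of these, such as the changed fibroblast gates, left the Scx-high cells as they were.

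Id3 was at 826 CPM (2157 UMIs, 791 to 861) in wild-type and 1067 (5910 UMIs, 1040.4 to 1095) in mutant Scx-low fibroblasts, a ratio of 1.29 (1.23 to 1.36). In Scx-high cells it was at 316 (1439 UMIs, 299 to 332) and 479 (351 UMIs, 430 to 532), a ratio of 1.52 (1.35 to 1.71). Over the alternatives this Scx-high ratio ran from 1.18 to 1.93, and it lay beyond its interval in 9 of 18. Mural cells went the other way, from 1076 (1016 to 1139) to 722 (668 to 779), a ratio of 0.671 (0.610 to 0.738). Under the Scx cut the mural levels were 1276 and 942, and with a mural list that leaves out Acta2 the ratio was 1.01, so the mural difference was not seen with that list. Endothelial cells were highest in the wild-type library at 1525 (1273 to 1812). They were at 1098 (911 to 1312) in the mutant library, where they overlapped the Scx-low fibroblasts. After thinning, Id3 was detected in 25.7% (23.0% to 28.5%) of wild-type and 39.0% (31.4% to 47.0%) of mutant Scx-high cells, and in 55.7% and 60.6% of Scx-low fibroblasts.

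Id2 differed little between the libraries in the fibroblasts. Scx-high cells had 216 CPM (985 UMIs, 203 to 230) and 210 (154 UMIs, 178 to 246), and Scx-low fibroblasts had 243 (635 UMIs, 225 to 263) and 210 (1162 UMIs, 198 to 222). The ratios were 0.973 (0.816 to 1.15) and 0.863 (0.783 to 0.952). It was also the Id gene whose level was closest between the fibroblast classes, with Scx-low over Scx-high ratios of 1.13 in wild-type and 0.998 in the mutant library. Id2 was past 2-fold in the other classes, higher in mutant immune cells, at 167 (134 to 206) and 466 (401 to 538), and lower in mural cells, at 419 (382 to 459) and 194 (167 to 225), and in endothelial cells, at 225 (19 UMIs) and 90.8 (10 UMIs), a ratio of 0.404 (0.168 to 0.913). Without immune cells over the Scx cut the immune levels were 163 and 466, and mural cells under the cut had 469 and 221. With the mural list that leaves out Acta2 the mural ratio was 0.58, and without cycling cells the immune ratio was 1.96, both under 2-fold. Haemoglobin-rich cells had 0 Id2 UMIs in both libraries. Id2 was found in 17.1% (11.5% to 24.0%) of wild-type and 35.3% (26.7% to 44.8%) of mutant immune cells after thinning, with 41 and 81 shallower immune cells left out.

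Id4 was found mostly in mural cells in the wild-type library. Wild-type mural cells held 392 CPM (438 UMIs, 356 to 431), which was 82.3% of the library's Id4 UMIs, and Id4 was found in 47.0% of them, with up to 18 UMIs in a cell. Wild-type Scx-low fibroblasts had 32.2 (84 UMIs, 25.7 to 39.8) and Scx-high cells 1.53 (7 UMIs, 0.617 to 3.16), a Scx-low over Scx-high ratio of 21.0 (9.73 to 53.7). That ratio was 5.85 when the Scx gate came before the mural gate and 46.6 without cycling cells. No Id4 UMI was found in endothelial cells of either library. In the mutant library mural cells had 51.1 (47 UMIs, 37.5 to 67.9), which is 7.68-fold lower, and Scx-low fibroblasts 17.2 (95 UMIs, 13.9 to 21.0), a ratio of 0.534 (0.394 to 0.724).

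The mural cells of the libraries also differed in their own markers. Under the Scx cut, Id4 was at 516 CPM in 167 wild-type and 80.7 in 146 mutant mural cells. In the same cells the contractile smooth muscle genes Myh11 and Acta2 were at 1035 and 20304 in wild-type and 447 and 8669 in the mutant library. Of the 8 markers of the mural list, 6 were lower and 2 higher in the mutant cells. The pericyte genes went both ways, with Rgs5 at 2021 and 1522, Notch3 at 295 and 177, Cspg4 at 136 and 68.4, Kcnj8 at 239 and 238, Abcc9 at 66.6 and 84.2, and Higd1b at 125 and 251. With a mural list that leaves out Acta2 (147 and 87 cells) the Id4 ratio was 0.262. The part of a different mix of mural cells in the Id4 ratio was not tested.

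**Figure D3:**
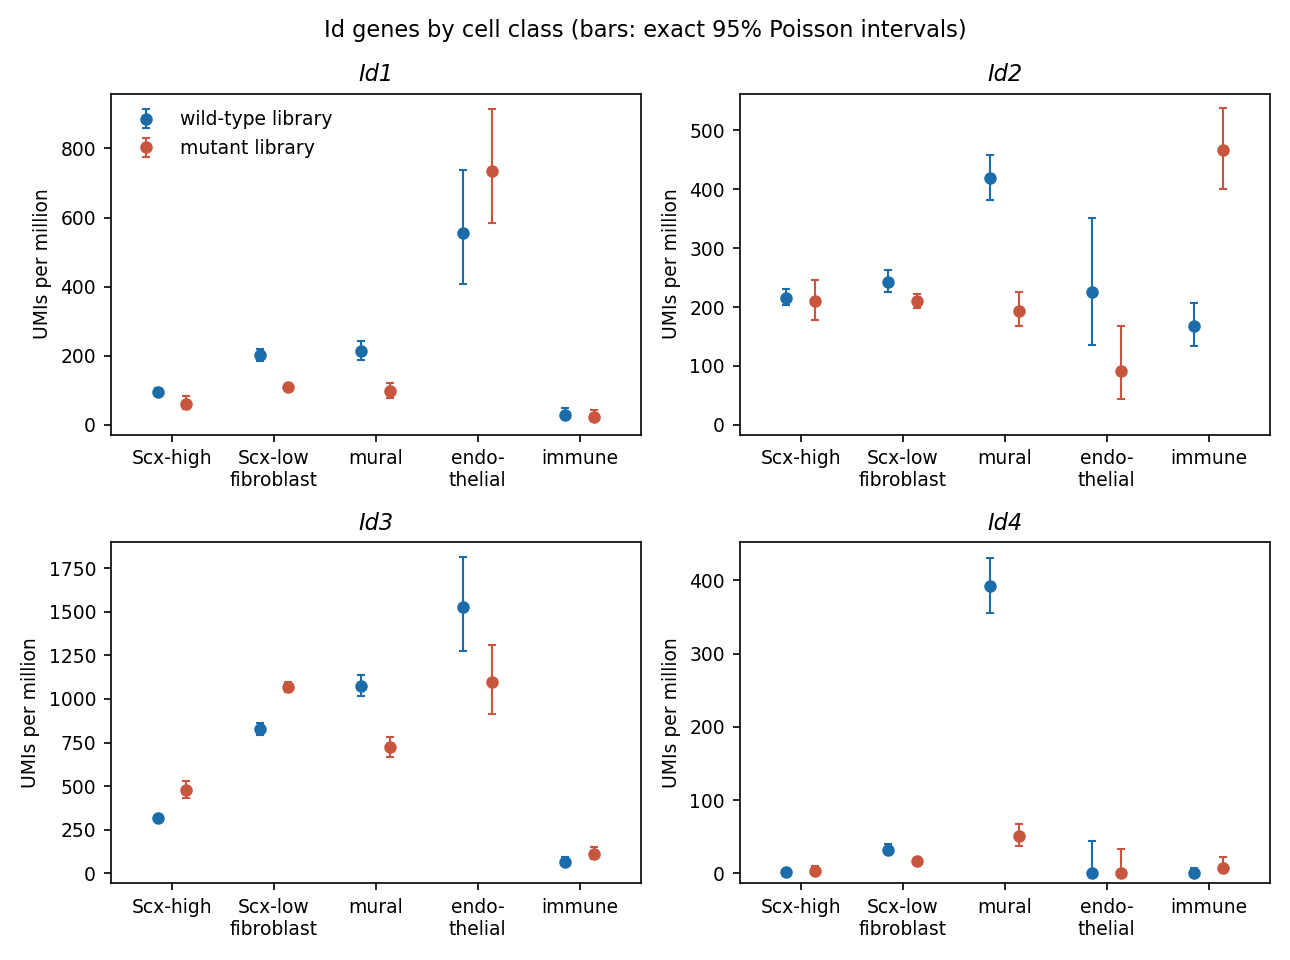
CPM of the 4 Id genes in 5 cell classes of the wild-type (blue) and mutant (red) library, with exact 95% Poisson intervals; each axis has its own scale. In the wild-type library Id1 and Id3 are highest in endothelial and Id4 in mural cells, and Id2 is highest in mutant immune cells, whose interval overlaps that of wild-type mural cells.

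Within the Scx-high class, Id1, Id3 and Mgp were lower in the group with the most Scx than in the group with the least, in both libraries. In the wild-type library Id3 went from 561 CPM (494 to 635) at 30 to 100 Scx UMIs per 10000, through 352 and 283, to 234 (209 to 260) at 300 or more. In the mutant library the values were 682 (585 to 789), 932 (746 to 1151), 323 (236 to 430) and 170 (121 to 232), so the highest level was in the second of the 4 groups. At 200 to 300 the mutant interval held the wild-type level. At 300 or more Id3 was not higher in the mutant library, and the intervals overlapped. Id1 was at 235 (192 to 284) in the lowest wild-type group and between 72.4 and 91.4 in the other 3. Mutant cells had Id1 at 103 (27 UMIs) in the lowest group and 29.8 (7 UMIs) in the highest. Mgp was at 854, 721, 460 and 329 in wild-type and at 3001, 3231, 1641 and 1216 in the mutant library, higher in the mutant library in each of the 4 groups. Id2 showed no such order in the wild-type library, where its level was 329 in the lowest group, 169 in the group of 200 to 300 and 224 in the highest. Near the cut, 86 wild-type and 49 mutant cells had 15 to 30 Scx UMIs per 10000, and 56 and 51 had 30 to 60.

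**Figure D4:**
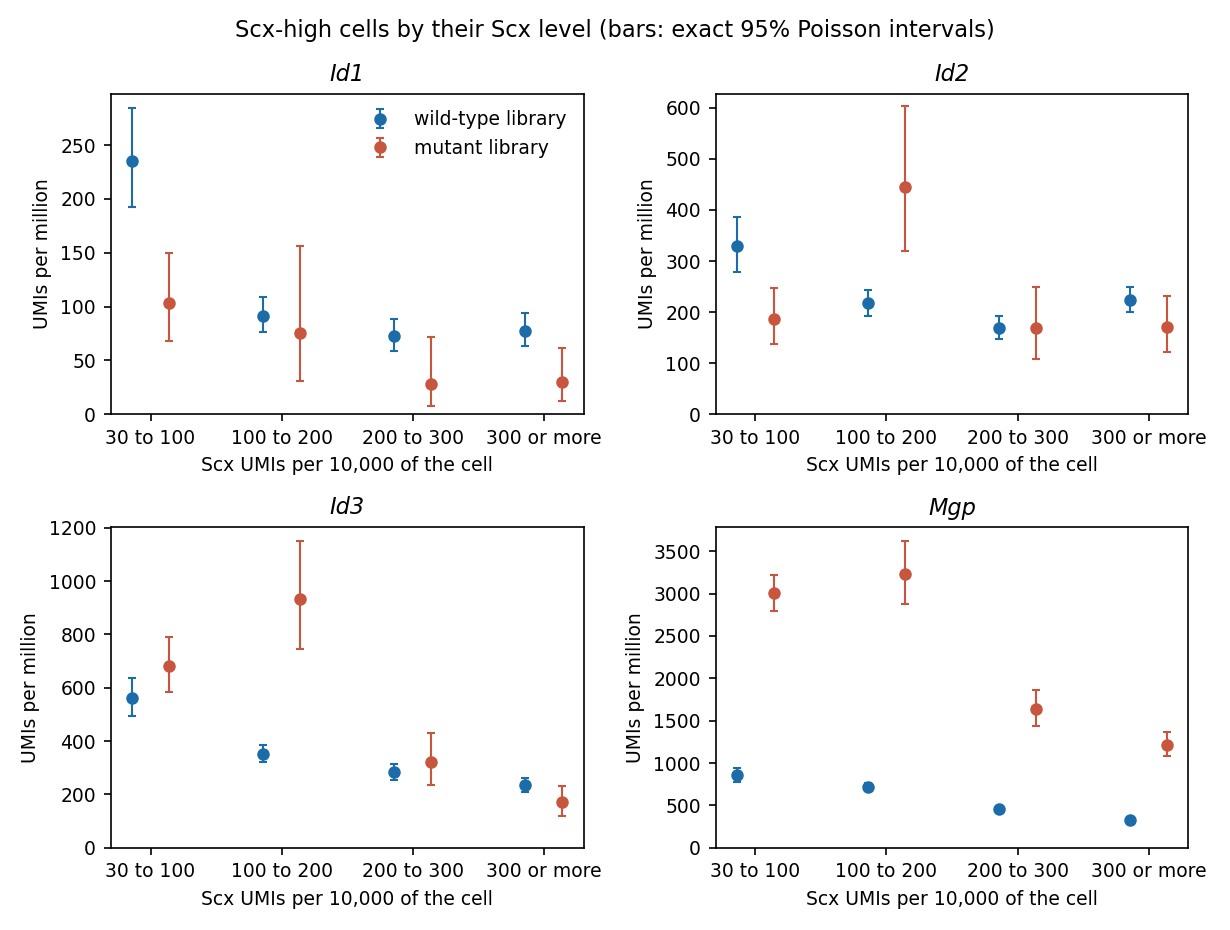
CPM of Id1, Id2, Id3 and Mgp in Scx-high cells grouped by their Scx UMIs per 10000 (horizontal axis), in the wild-type (blue) and mutant (red) library, with exact 95% Poisson intervals. Id3 and Mgp are lowest in the group of 300 or more in both libraries, and Mgp is higher in the mutant library in each group.

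Among Scx-low fibroblasts the Id levels also depended on the kind of cell. Wild-type cells with at least 3 Tnmd UMIs had more of Id1 (334 against 169 CPM), Id2 (510 against 180) and Id3 (1200.3 against 737) than cells with fewer. In the mutant library the same groups had 98.6 and 113 for Id1, 195 and 216 for Id2, and 1078 and 1063 for Id3, so the difference between Tnmd groups seen in the wild-type library was not seen there. Immune cells also held Tnmd, at 527 CPM in wild-type (13 of these cells were over the Scx cut) and 142 in the mutant library. Whether the limit of 3 Tnmd UMIs took in the same kind of cell in both libraries was not tested. Cells with Pi16 had less Id1, Id2, Id3 and Mgp than cells without it in both libraries. For Id1 the levels with and without Pi16 were 146 and 247 in wild-type and 66.7 and 120 in the mutant library. For Id3 they were 733 and 904 in wild-type and 747 and 1153 in the mutant library, and with Pi16 the 2 libraries overlapped (685 to 783 and 698 to 798).

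Immediate early genes, which respond within minutes to serum and to dissociation, are given beside the Id genes because serum also induces Id genes. The 13 genes of the list summed to 3599.8 CPM in wild-type and 3356 in mutant Scx-high cells, a ratio of 0.932 (0.893 to 0.973), and to 4322 and 6699 in Scx-low fibroblasts, a ratio of 1.55 (1.52 to 1.58). In Scx-low fibroblasts 3 of the 13 were at least 2-fold higher in the mutant library (Fos, Junb and Zfp36). Wild-type Scx-low fibroblasts in the lowest, middle and highest of 3 equal groups by these genes had Id3 at 669, 697 and 1145 and Id1 at 149, 190 and 269 CPM. Mutant cells had Id3 at 930, 1007 and 1307 and Id1 at 117, 99.2 and 109. In cells at or under the median of these genes the mutant over wild-type ratio was 0.669 for Id1 and 1.39 for Id3, on the same side of 1 as over all Scx-low fibroblasts. Their part in the Id levels was not tested further.

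In fibroblasts, cells with an Id1 UMI held Id3 and Id2 more often than cells without one. After thinning, Id3 was detected in 52.8% (42.9% to 62.6%) of wild-type Scx-high cells with Id1 and in 22.6% (19.9% to 25.4%) of those without it. In mutant Scx-low fibroblasts the shares were 76.1% (69.3% to 82.0%) and 58.6% (56.0% to 61.2%). Id2 was detected in 45.3% and 21.4% of wild-type Scx-high cells with and without Id1, and in 35.1% and 20.9% of mutant Scx-low fibroblasts. In mutant mural cells, where 23 cells had Id1, the Id2 shares were 21.7% and 21.9%. Mgp was detected in 61.2% of wild-type Scx-low fibroblasts with and 37.1% without Id3, and in 79.4% and 70.7% of the mutant ones. Cells of 1 library share their preparation, so these shares describe cells and are not replicates of a condition.

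The genes whose levels over the 10 classes (5 in each library) were most like those of a member were found among 5418 genes by Pearson correlation on the log2 scale, as a description. For Id1 they were Sptbn1 (r = 0.976), Cdh13 (0.975) and Apbb2 (0.973), each highest in endothelial cells. For Id3 they were Timp3 (0.976), Igf2r (0.974) and Rsrc1 (0.971). For Id4 they were Pi15 (0.964), Dmpk (0.958) and Dnajb4 (0.929), all highest in wild-type mural cells. For Mgp they were Sec11a (0.965), Slc25a17 (0.940) and Fstl1 (0.939), for Smad6 Ltbp4 (0.917), Actr10 (0.912) and Man1a2 (0.910), and for Id2 Slc35c2 (0.849), R3hdm4 (0.839) and Mpv17l2 (0.829), the lowest values of the 6. The Smad6 levels rest on at most 40 UMIs in a class, the highest of them on 2 UMIs, so its order of classes is within counting error.

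More of the 53 other genes of the pathway were past 2-fold between the libraries in Scx-high cells than in Scx-low fibroblasts. In Scx-high cells 31 had enough UMIs, 6 were at least 2-fold higher in the mutant library (Acvr1, Fst, Fstl1, Fstl3, Nbl1 and Twsg1) and 7 lower (Bambi, Bmp2, Bmp3, Bmpr1b, Crim1, Nog and Sostdc1). Over all genes, too, more were past 2-fold in Scx-high cells (13.5% higher and 8.07% lower) than in Scx-low fibroblasts (6.07% and 5.71%). In Scx-low fibroblasts 38 had enough UMIs, 1 was higher (Bmper, a secreted BMP regulator, from 9.95 to 39.0 CPM) and 1 lower (Bmp2, a ligand like Bmp4, from 16.5 to 2.89). Bmp2 was thus 5.70-fold lower beside the 5.76-fold lower Bmp4 of the same cells, on 43 wild-type and 16 mutant Bmp2 UMIs.

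Of the 12 antagonists and modulators with enough UMIs, 5 were at least 2-fold higher and 4 lower in mutant Scx-high cells, against 13.5% and 8.07% of all genes. Follistatin (Fst), which binds activins and some BMPs, was at 5.92 and 49.1 CPM, a ratio of 8.30 (4.90 to 14.2). Its wild-type level in Scx-low fibroblasts was 139. Nbl1, a DAN-family BMP antagonist, was at 98.2 and 303 in Scx-high cells and at 951 and 571 in Scx-low fibroblasts. Fstl1, a secreted follistatin-like protein, was at 450 and 1201 in Scx-high cells and at 2384 and 1833 in Scx-low fibroblasts. These 3 were at their highest in wild-type Scx-low fibroblasts. The receptor Acvr1 and the antagonists Fstl3 and Twsg1 were instead higher in mutant Scx-high cells than in the Scx-low fibroblasts of either library. Fstl3 was at 9.21 and 42.3 in Scx-high cells and at 4.98 and 6.68 in Scx-low fibroblasts. Acvr1 was at 8.11 and 21.8 against 10.3 and 12.3, and Twsg1 at 27.6 and 61.4 against 44.0 and 36.1. For Acvr1 and Twsg1 the mutant Scx-high interval overlapped that of wild-type Scx-low fibroblasts (6.81 to 15 and 36.3 to 52.8).

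On the lower side, Bambi had the most UMIs. Bambi, a pseudoreceptor that blocks BMP and TGFβ receptors, was at 222 and 54.6 CPM in Scx-high cells, which is 4.07-fold lower, and at 48.2 and 41.4 in Scx-low fibroblasts. The type I receptor Bmpr1b was at 20.4 (93 UMIs) and 4.09 (3 UMIs), a ratio of 0.201 (0.0407 to 0.605), in the same cells in which Bmpr1a was higher. The ligand Bmp3 was at 45.4 and 17.7, the modulator Crim1 at 15.8 and 1.36 (1 UMI), and the antagonist Sostdc1 at 22.4 and 2.73 (2 UMIs). None of the 8 Smad genes and regulators with enough UMIs was past 2-fold in either fibroblast class. Smad1 had the largest ratio of them in Scx-high cells, 1.96 (1.17 to 3.17), while Smad5 was at 32.5 and 32.8 and Smad4 at 15.8 and 19.1. The E proteins that ID proteins bind were also under 2-fold: Tcf4 was at 130 and 165, Tcf12 at 40.6 and 65.5, and Tcf3 at 32.9 and 46.4.

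Between the fibroblast classes of the wild-type library, 14 of the 37 pathway genes with enough UMIs were at least 2-fold higher in Scx-low fibroblasts and 6 lower. These counts were 11 and 3 of 36 in the mutant library. The shares of all genes were 20.9% higher and 6.23% lower in wild-type and 15.4% and 6.51% in the mutant library. Htra1, a secreted serine protease, was at 896 in wild-type and 1310.3 CPM in mutant Scx-high cells, and at 285 and 434 in Scx-low fibroblasts.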

How the data were processed

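Single-cell 3′ transcripts (10x Chromium, Illumina NextSeq) of 2 libraries were analysed. The authors deposited raw UMI counts per gene and cell barcode for each library, aligned to mm10 with Cell Ranger (1.2.0 in the submitters' processing notes, 2.0 in the methods) and filtered on total UMIs per barcode; nothing was normalized. The control sample carries the labels wild-type and Het. The members, gene lists and gates were chosen with earlier results of these data known.

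Cells were classed in order: haemoglobin-rich (over 50% haemoglobin UMIs), then immune, endothelial or mural by the list with the most UMIs (at least 5, ties unclassed), then Scx-high, then Scx-low fibroblasts. UMIs were summed per class and library and expressed as CPM. With 1 library per condition no test was run, and replicate numbers pair nothing. Exact Poisson, binomial and conditional 95% intervals cover counting error only, and PCR or library variation is not in them. A count of 0 was given the limit of 3 counts. Detected shares were also computed after thinning cells to 1500 UMIs (seed 1). All members are named, and pathway genes are named when past 2-fold with at least 50 UMIs (counts of genes use at least 20); Fstl1, Nbl1, Htra1 and Tcf4 were named for abundance, and Bmp2 and Nog in Scx-high cells, Tcf3, Tcf12, Smad1, Smad4 and Smad5 after their values were seen. Similar genes were ranked on log2(CPM + 10) among genes reaching 50 CPM in a class. Doublets were called with Scrublet (expected 2%), which marked 26 wild-type and 8 mutant cells (0.309%); the mutant share is too low for the caller to have worked, and the cells were kept. Python 3.11.15, NumPy 2.4.6, SciPy 1.17.1, pandas 2.3.3, scanpy 1.11.5 and matplotlib 3.10.9 were used, and the scripts were checked on generated counts.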

Additional observations from a re-analysis of the deposited data

Results flagged for a closer look

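Id2 and Mgp were at least 2-fold higher in the mutant library in some cell classes and at least 2-fold lower in others. For Id2 the ratio was 2.79 in immune cells, 0.464 in mural cells and 0.404 in endothelial cells. For Mgp it was 4.09 in Scx-high cells, 2.95 in Scx-low fibroblasts and 5.47 in immune cells, but 0.322 in endothelial cells. With 1 library per condition these differences between classes were not tested. The endothelial values rest on 22 wild-type and 29 mutant cells, with 19 and 10 Id2 UMIs and 117 and 49 Mgp UMIs. Some of these ratios were under 2-fold in an alternative. Id2 was at 0.58 in mural cells with the mural list without Acta2, and at 1.96 in immune cells without cycling cells. Mgp was at 0.535 in endothelial cells without cycling cells.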

How the results depend on the processing

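Over 18 alternatives, 949 values of 53 member ratios were recomputed. Of the alternatives 16 were planned and 2 chosen after seeing the data (the Scx gate first, and a mural list without Acta2). Of the values 833 lay within their counting interval and 116 moved beyond it. Some of the 833 could not move. Dropping the minimum of UMIs changes no ratio, and the changed Scx cuts left the mural, endothelial and immune cells as they were. The changed fibroblast gates left the Scx-high cells as they were. Leaving out cells that passed more than 1 gate, or taking the Scx gate first, left the Scx-low fibroblasts as they were. Leaving out called doublets removed only 4 wild-type and 3 mutant Scx-low fibroblasts. Of the ratios past 2-fold, 0 crossed to the other side of 1, but the alternatives of 16 of the 53 ratios lay on both sides of 1, among them Mgp Scx-low over Scx-high in the mutant library (1.43, down to 0.879 without neural, muscle, cartilage and bone marker cells), the same ratio of Id2 in the wild-type library (1.13, down to 0.720 likewise), and Id1 between the libraries in immune cells (0.793, up to 2.18 with the Scx gate first) and endothelial cells (1.32, down to 0.742 at low immediate early UMIs). The count of members at least 2-fold higher in mutant Scx-low fibroblasts stayed at 1 (Mgp) in all 18, some of which could not change it. In mutant Scx-high cells the higher count was 1 (Mgp) instead of 2 with the 20 top genes taken out of the sums, centred on the median gene, without cycling cells, with the Scx gate first, or with the mural list without Acta2. The lower count there was 2 (Bmp4 and Grem1) with cells scaled to equal UMIs and 0 without neural, muscle, cartilage and bone marker cells. The Bmp4 ratio there stayed between 0.154 and 0.367 in all 18 alternatives, so the count of 0 came from the minimum of 20 UMIs. Leaving out those marker cells kept only 176 of 1111 wild-type and 88 of 177 mutant Scx-high cells. The cartilage list used there holds Col2a1, which the paper gives among the top genes of its wild-type tenocyte cluster. In Scx-low fibroblasts the lower count was 2 in cells at or under the median of immediate early UMIs (Smad6 and Bmp4), thinned (Id1 and Bmp4), or with the mural list without Acta2 (Id4 and Bmp4). Between fibroblast classes of the wild-type library the higher count of 4 was 2 without the 20 most abundant genes and 1 when centred. The lower count of 1 (Grem1) was 0 without those marker cells, at low immediate early UMIs, or thinned. The Grem1 ratio stayed between 0.117 and 0.478 in all 18 alternatives, so these counts of 0 also came from the minimum of 20 UMIs. In the mutant library the higher count of 2 was 1 with a Scx cut of 15, scaled, or without the marker cells, and 4 with a cut of 60, and the lower count of 0 was 1 (Smad6) when scaled. The cause of the other changes was not tested. No paired analysis was possible because each condition has 1 library. Depth limits Grem1, Smad6 and every endothelial value.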

Other observations

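Cells that met no class gate numbered 33 (wild-type library) and 102 (mutant library). Id1 was at 392 CPM (256 to 574) and 117 (76.4 to 171) in them, Id2 at 483 (330 to 681) and 297 (230 to 378), and Id3 at 1357 (1091 to 1668) and 765 (654 to 889). Mgp was at 1010.2 (783 to 1283) and 963 (838 to 1101). Cells with neural markers made up 9.09% of the wild-type and 41.2% of the mutant cells of this kind, so the same gate outcome held different mixtures in the libraries.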
